A study of Homo sapiens with 6 samples.

Results

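The genes described here are 10 markers and factors used to recognise breast cancer stem cells: CD44, CD24, EPCAM, PROM1, ALDH1A1, ALDH1A3, SOX2, SOX9, NANOG and BMI1. A gene was taken where the array held a probe set, a group of short probes against one transcript region, that the annotation ties to that gene alone. This gave 9 of the 10 genes with 32 probe sets, among 19777 genes and 54613 probe sets tested. The only probe set for BMI1 also names a second gene, so BMI1 is not described. All arrays hold RNA of MDA-MB-231, a long-established human line from a breast cancer without hormone receptors or HER2 (triple-negative, basal). The first group of 3 arrays, called SDC1 siRNA, came from cells transfected with a small interfering RNA against SDC1, the gene of the cell surface proteoglycan syndecan-1. The second group of 3, called control siRNA, came from cells transfected with a negative control siRNA. All 6 samples are transfected cells of a single line, and 3.6 µg of total RNA was labelled for each. The sources used here give neither the siRNA sequences nor the time after transfection, and no untransfected cells were analysed.

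A breast cancer stem cell is a tumour cell able to seed a new tumour and to give rise to the other cells in it. In breast cancer such cells have been enriched by surface CD44 with little or no CD24, or by aldehyde dehydrogenase activity, and MDA-MB-231 is known as a line in which most cells carry CD44 with little CD24. SOX2 and NANOG belong to the pluripotency network of embryonic stem cells, and SOX9 acts in mammary progenitors. The markers do not name a single population, and RNA from a whole culture does not show which cells carry it: fewer cells of a type and less RNA per cell cannot be told apart.

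Values are on the log2 scale, counted from the probe set's own median over 6 arrays, so a value above 0 is above that median and levels of different genes cannot be compared. Differences are SDC1 siRNA minus control siRNA on the log2 scale, with the standard error (SE) of a limma fit over all genes or all probe sets, and adjusted p is the Benjamini-Hochberg value over all of them, called at 0.05. SDC1 itself was at -1.14, -1.16 and -1.43 on the SDC1 siRNA arrays, against 1.13, 1.32 and 1.09 on the control siRNA arrays, which left 18.7% of the control transcript (adjusted p = 2.14e-06). Of all genes, 28.1% passed the threshold, 13.0% higher and 15.1% lower, and the median gene was at 0.00. The labels name no batch, but spike-in RNAs added before labelling parted the arrays into 2 sets. SDC1 siRNA replicates 1 and 2 and control siRNA replicate 1 form the first, with a mean spike-in value between 0.39 and 0.68. SDC1 siRNA replicate 3 and control siRNA replicates 2 and 3 form the second, between -0.47 and -0.43. Array medians lay between -0.01 and 0.01. The design calls the replicates independent without saying what separates them, so p-values measure the spread between these arrays, which may be technical.

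Of the 9 markers, 1 rose and 3 fell after SDC1 siRNA, against 28.1% of all genes called. CD24 rose, CD44, ALDH1A3 and EPCAM fell, and ALDH1A1, PROM1, SOX2, SOX9 and NANOG did not pass the test. The groups of arrays did not overlap for the 4 genes that passed and overlapped for the other 5, while 41.7% of all genes had groups that did not overlap. The median difference over the 9 genes was -0.03.

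**Figure D1:**
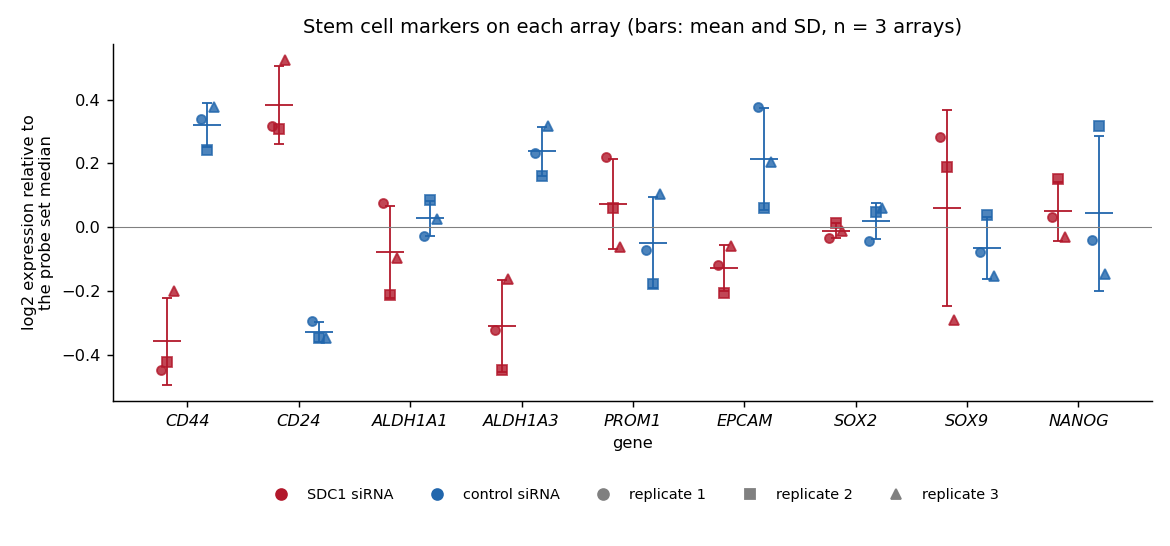
Value of each marker on each array, in log2 units from the probe set median, with SDC1 siRNA arrays left of control siRNA arrays. Points are arrays, horizontal bars the mean and whiskers the SD over 3 arrays; the groups part for CD44, CD24, ALDH1A3 and EPCAM, and SDC1 siRNA replicate 3 lies apart from replicates 1 and 2 for SOX9.

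Start regions were sought for the markers that passed. Those of CD44, CD24 and ALDH1A3 are shown, and the sequences used here held none for EPCAM. Each runs from 250 bases before to 50 bases after a transcription start of RefSeq on GRCh38.p14. CD44 lies at chr11:35138921-35139220 on the plus strand, CD24 at chr6:106975578-106975877 on the minus strand (the outermost of 3 listed starts), and ALDH1A3 at chr15:100879581-100879880 on the plus strand. Each is written 5′ to 3′, with GC boxes (GGGCGG on either strand, a motif bound by SP1-type factors) in capitals.
CD44: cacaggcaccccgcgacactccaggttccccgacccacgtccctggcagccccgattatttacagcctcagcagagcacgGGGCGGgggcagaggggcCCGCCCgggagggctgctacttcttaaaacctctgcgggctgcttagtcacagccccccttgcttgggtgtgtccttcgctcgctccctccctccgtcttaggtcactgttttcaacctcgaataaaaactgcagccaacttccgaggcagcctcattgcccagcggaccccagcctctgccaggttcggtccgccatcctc
CD24: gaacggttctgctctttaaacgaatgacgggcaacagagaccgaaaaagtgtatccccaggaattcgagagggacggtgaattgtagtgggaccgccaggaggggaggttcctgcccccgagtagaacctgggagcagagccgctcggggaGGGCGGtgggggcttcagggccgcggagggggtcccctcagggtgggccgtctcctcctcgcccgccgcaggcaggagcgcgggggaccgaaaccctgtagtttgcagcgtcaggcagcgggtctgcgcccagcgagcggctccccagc
ALDH1A3: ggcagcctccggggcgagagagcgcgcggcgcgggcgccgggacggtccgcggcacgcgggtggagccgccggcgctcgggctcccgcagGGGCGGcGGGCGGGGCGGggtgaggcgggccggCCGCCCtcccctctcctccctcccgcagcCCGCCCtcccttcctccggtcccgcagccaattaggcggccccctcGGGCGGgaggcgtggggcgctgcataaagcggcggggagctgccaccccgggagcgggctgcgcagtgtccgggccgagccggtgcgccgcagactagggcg
The CD44 window held 2 GC boxes, the CD24 window 1 and the ALDH1A3 window 6, of which 2 overlap each other by a base, and 45.0% of 35116 listed start regions of this length hold at least 1. The G and C content was 63.3% for CD44, 66.7% for CD24 and 81.7% for ALDH1A3. None of the 3 windows held the AP-1 motif TGANTCA (7.71% of all regions), the E-box CANNTG (68.7%) or the letters TATAAA (11.5%), searched on both strands. These are matches of letters only.

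CD44 is the receptor for hyaluronan, a sugar polymer of the matrix, and is itself able to carry heparan sulfate in some splice forms. Its gene value, the mean of 7 probe sets, was -0.45, -0.42 and -0.20 on the SDC1 siRNA arrays, against 0.34, 0.24 and 0.38 on the control siRNA arrays. All SDC1 siRNA arrays lay below all control siRNA arrays, and SDC1 siRNA replicate 3 lay closest to them. CD44 averaged -0.36 ± 0.14 after SDC1 siRNA and 0.32 ± 0.07 after control siRNA (SD, n = 3 each), and it fell by 0.68 on the log2 scale (SE 0.081, limma adjusted p = 0.000394). The ratio of SDC1 siRNA to control siRNA was 0.625, with a 95% interval from 0.55 to 0.711. Of all genes tested, 2.83% were lowered at least as far. The difference was -0.77 within the first spike-in set and -0.51 within the second.

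The 13 CD44 probe sets did not all move alike. In the fit over probe sets 8 fell, none rose and 5 did not pass, where 10.1% of all probe sets were called lower and 9.7% higher. Those 8 were all among the 10 CD44 probe sets of the brightest class, a coarse reading of signal explained with the processing. That class was read from the 3 arrays at or above the median of a probe set; read from all 6 arrays, 229221_at, the probe set that fell furthest, and 217523_at move to the middle class, and the CD44 gene value becomes -0.48 (limma adjusted p = 0.0023). In the brightest class 33.6% of all probe sets were called, against 3.7% in the dimmest. The 3 CD44 probe sets outside the brightest class gave a difference of -0.18 (234418_x_at), -0.17 (216056_at) and 0.07 (1565868_at), and none of them passed. Groups of arrays did not overlap for 8 of the 13 CD44 probe sets, where 35.7% of all probe sets had such groups. They are the same 8 that fell, and a probe set that passes mostly parts the groups, so this adds little to the calls.

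Probe set 229221_at stood well below the others. It was at -0.99, -0.78 and -0.78 on the SDC1 siRNA arrays, against 1.10, 0.84 and 0.78 on the control siRNA arrays, and it fell by 1.76 on the log2 scale (SE 0.11, limma adjusted p = 2.00e-05). The differences of the other 7 that fell were close to each other: -0.61 for 212014_x_at, -0.56 for 209835_x_at, -0.53 for 1557905_s_at, -0.53 for 204490_s_at, -0.48 for 210916_s_at, -0.47 for 212063_at and -0.41 for 204489_s_at, with limma adjusted p from 0.00108 to 0.0125. Of these, 212063_at had the tightest replicates, at -0.30, -0.29 and -0.18 after SDC1 siRNA, against 0.21, 0.18 and 0.26 after control siRNA. With 229221_at left out, the other 6 probe sets of the gene value gave -0.36, -0.36 and -0.10 after SDC1 siRNA, against 0.21, 0.14 and 0.31 after control siRNA, a difference of -0.50. So the size of the CD44 fall, though not its direction, depended on this probe set. The excess of 229221_at over those 6 was -0.57 ± 0.14 on the SDC1 siRNA arrays and 0.69 ± 0.21 on the control siRNA arrays (SD, n = 3 each), and the groups did not overlap. This probe set was singled out after its values were seen, and the part of the CD44 transcript it reads is not given in the sources used here.

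Probe set 217523_at was at -0.16, -0.33 and 0.04 after SDC1 siRNA, against 0.58, -0.04 and 0.71 after control siRNA. Control siRNA replicate 2 fell among the SDC1 siRNA arrays, and the difference of -0.57 did not pass (SE 0.19, limma adjusted p = 0.0661), though without that array it was -0.79 (adjusted p = 0.00359). Probe set 234411_x_at, the other of the brightest class that did not pass, was at -0.08, 0.08 and -0.21 after SDC1 siRNA, against 0.49, 0.29 and -0.18 after control siRNA, and there control siRNA replicate 3 was the low array (difference -0.27, limma adjusted p = 0.302). Without that array it was -0.46 and passed (adjusted p = 0.0307), and without control siRNA replicate 1 it was -0.13. In all 8 probe sets that fell, SDC1 siRNA replicate 3 was the highest array of its group or level with the highest. That array is the only SDC1 siRNA array of the second spike-in set, and the part of the set in these values was not tested. RefSeq lists an antisense RNA, CD44-AS1, and a small nucleolar RNA, SNORD164, within the CD44 locus.

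**Figure D2:**
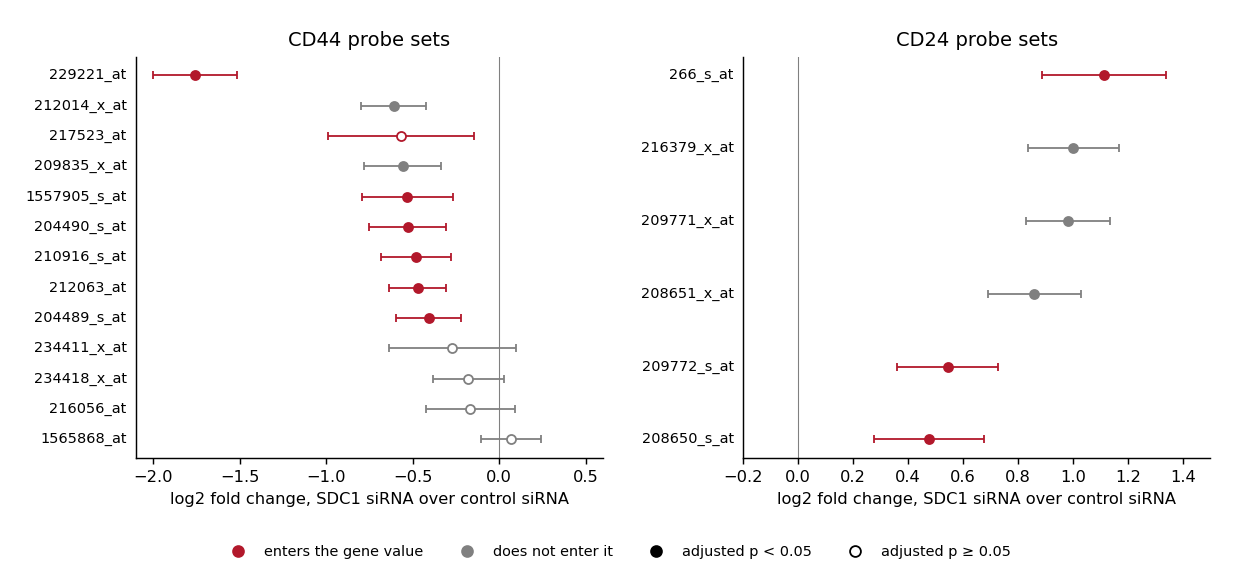
Difference in log2 expression, SDC1 siRNA over control siRNA, for each of the 13 CD44 probe sets (left) and 6 CD24 probe sets (right); whiskers are 95% intervals of the limma fit, red marks probe sets in the gene value and filled points those with an adjusted p under 0.05. CD44 229221_at lies at -1.76 and the other CD44 probe sets between -0.61 and 0.07, while all CD24 probe sets lie between 0.48 and 1.11.

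CD24 is a small, heavily glycosylated protein held to the membrane by a lipid anchor, a ligand of P-selectin and of the immune receptor SIGLEC10. Its gene value, from 3 probe sets, was 0.32, 0.31 and 0.52 on the SDC1 siRNA arrays, against -0.29, -0.35 and -0.35 on the control siRNA arrays. All SDC1 siRNA arrays lay above all control siRNA arrays, with replicate 3 the highest. CD24 averaged 0.38 ± 0.12 after SDC1 siRNA and -0.33 ± 0.03 after control siRNA (SD, n = 3 each). It rose by 0.71 (SE 0.073, limma adjusted p = 0.000184), a ratio of 1.638 with a 95% interval from 1.458 to 1.84, and 1.98% of all genes were raised at least as far. The difference was 0.61 within the first spike-in set and 0.87 within the second.

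All 6 CD24 probe sets rose, where 9.7% of all probe sets were called higher. All 6 were of the brightest class, in which 33.6% of probe sets were called in either direction. The groups did not overlap in any of the 6, against 35.7% of all probe sets. The 6 read a single gene, so they are not independent. The smallest difference was 0.48 for 208650_s_at (SE 0.087, limma adjusted p = 0.00528). The largest was 1.11 for 266_s_at (SE 0.099, limma adjusted p = 0.000129), with 0.49, 0.44 and 0.71 after SDC1 siRNA, against -0.44, -0.69 and -0.58 after control siRNA. The 3 probe sets ending in _x_at, a suffix the manufacturer gives to probes that may bind other transcripts, averaged 0.45, 0.45 and 0.47 after SDC1 siRNA, against -0.52, -0.42 and -0.53 after control siRNA. Their mean difference of 0.95 was above that of the 3 probe sets of the gene value, and with all 6 averaged CD24 was at 0.83. RefSeq names 5 CD24 pseudogenes, so signal from such copies cannot be told apart from CD24 here.

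The pair that defines the classical phenotype thus moved in opposite directions. The CD44 value minus the CD24 value was -0.77, -0.73 and -0.72 on the SDC1 siRNA arrays, against 0.63, 0.59 and 0.73 on the control siRNA arrays. It averaged -0.74 ± 0.02 after SDC1 siRNA and 0.65 ± 0.07 after control siRNA (SD, n = 3 each), and the groups lay 1.39 apart. It is a sum of the opposite changes already given, on a scale whose zero is arbitrary, so it says nothing of the share of cells with the phenotype.

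EPCAM is an epithelial adhesion protein used with CD44 and CD24 in the first sorts of breast cancer stem cells. Its single probe set was at -0.12, -0.21 and -0.06 after SDC1 siRNA, against 0.38, 0.06 and 0.20 after control siRNA. The groups did not overlap, but control siRNA replicate 2 and SDC1 siRNA replicate 3 lay close together. EPCAM fell by 0.34 (SE 0.088, limma adjusted p = 0.0196), a ratio of 0.789 with a 95% interval from 0.687 to 0.908. The call did not hold without SDC1 siRNA replicate 1 (adjusted p = 0.0521), SDC1 siRNA replicate 2 (adjusted p = 0.0703) or control siRNA replicate 1 (adjusted p = 0.0534). The difference was -0.54 within the first spike-in set and -0.19 (adjusted p = 0.303) within the second.

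PROM1 encodes prominin-1 (CD133), a protein of membrane protrusions. Its single, dim probe set was at 0.22, 0.06 and -0.06 after SDC1 siRNA, against -0.07, -0.18 and 0.10 after control siRNA. The groups overlapped, and the difference of 0.12 (SE 0.096, limma adjusted p = 0.413) had a 95% interval from -0.10 to 0.34. PROM1 was in the dimmest class, in which few probe sets pass, so a change of PROM1 may not be detectable here.

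ALDH1A1 and ALDH1A3 are cytosolic aldehyde dehydrogenases that oxidise retinaldehyde to retinoic acid, and both can give the enzyme activity by which stem-like cells are sorted. ALDH1A3 was at -0.32, -0.45 and -0.16 on probe set 203180_at after SDC1 siRNA, against 0.23, 0.16 and 0.32 after control siRNA. The groups did not overlap, and SDC1 siRNA replicate 3 again lay closest to the control siRNA arrays. ALDH1A3 fell by 0.55 (SE 0.084, limma adjusted p = 0.00149), a ratio of 0.684 with a 95% interval from 0.599 to 0.782. It was at -0.62 within the first spike-in set and -0.40 (adjusted p = 0.0686) within the second.

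The second ALDH1A3 probe set, 1558649_at, is of the middle brightness class and did not follow the first. It was at 0.11, -0.20 and 0.10 after SDC1 siRNA, against 0.15, -0.10 and -0.23 after control siRNA, a difference of 0.06 (SE 0.12, limma adjusted p = 0.78). With the probe sets averaged, ALDH1A3 was at -0.24 and did not pass (adjusted p = 0.0714). RefSeq lists an antisense RNA, ALDH1A3-AS1, that overlaps the gene. ALDH1A1 was at 0.08, -0.21 and -0.10 after SDC1 siRNA, against -0.03, 0.08 and 0.03 after control siRNA. These groups overlapped, and the difference of -0.11 (SE 0.082, limma adjusted p = 0.401) had a 95% interval from -0.29 to 0.08.

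SOX9 is a transcription factor of progenitor cells in many epithelia. It was at 0.28, 0.19 and -0.29 after SDC1 siRNA, against -0.08, 0.04 and -0.15 after control siRNA. SDC1 siRNA replicates 1 and 2 lay above all control siRNA arrays and replicate 3 below all of them. The difference of 0.12 (SE 0.14, limma adjusted p = 0.578) had a 95% interval from -0.19 to 0.44. Without SDC1 siRNA replicate 3 it was 0.30 and passed (adjusted p = 0.033), and within the spike-in sets it was 0.31 (first) and -0.23 (second), neither past the threshold. SOX9 had an SD of 0.31 among the SDC1 siRNA arrays, where the median gene had a spread of 0.092 within a group.

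SOX2 was measured by 4 probe sets that did not move together. Its gene value, from the 2 probe sets of the brightest class, was -0.03, 0.01 and -0.01 after SDC1 siRNA, against -0.04, 0.05 and 0.06 after control siRNA. The difference of -0.03 (SE 0.059, limma adjusted p = 0.748) had a 95% interval from -0.17 to 0.10. Those 2 probe sets lay on opposite sides of their medians on every array, so their mean spread less than either. Alone, 213721_at gave -0.05 (SE 0.12) and 214178_s_at -0.01 (SE 0.15), with 95% intervals from -0.33 to 0.24 and from -0.35 to 0.32. The dimmest SOX2 probe set, 228038_at, was at 0.09, 0.64 and 0.29 after SDC1 siRNA, against -0.62, -0.09 and -0.21 after control siRNA, and its groups did not overlap. It rose by 0.65 (SE 0.17, limma adjusted p = 0.0258 in the fit over probe sets), a call that did not hold without SDC1 siRNA replicate 2 or 3 or without control siRNA replicate 1 or 3, at an adjusted p from 0.0507 to 0.0782. SOX2 lies within the noncoding gene SOX2-OT in RefSeq, and which of the probe sets read SOX2-OT is not given in the sources used here.

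NANOG, a homeobox factor of pluripotent cells, did not part the groups on either probe set. On 231079_at it was at 0.03, 0.15 and -0.03 after SDC1 siRNA, against -0.04, 0.32 and -0.15 after control siRNA. The difference of 0.01 (SE 0.12, limma adjusted p = 0.978) had a 95% interval from -0.26 to 0.27. On 220184_at the difference was 0.04 (limma adjusted p = 0.888). RefSeq names 11 NANOG pseudogenes, which the same probes may read.

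Over the 32 probe sets of the 9 markers, 7 rose (6 of CD24 and 1 of SOX2), 10 fell (8 of CD44 and 1 each of ALDH1A3 and EPCAM) and 15 did not pass. The share called was 19.8% among all probe sets and 33.6% in the brightest class. That class held 22 of the 32 and, for gene values, 6 of the 9 markers. The part of brightness in the marker counts was not tested. CD44 and CD24 hold 19 of the 32, and probe sets of a gene share its transcripts, so these are not independent counts.

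**Figure D3:**
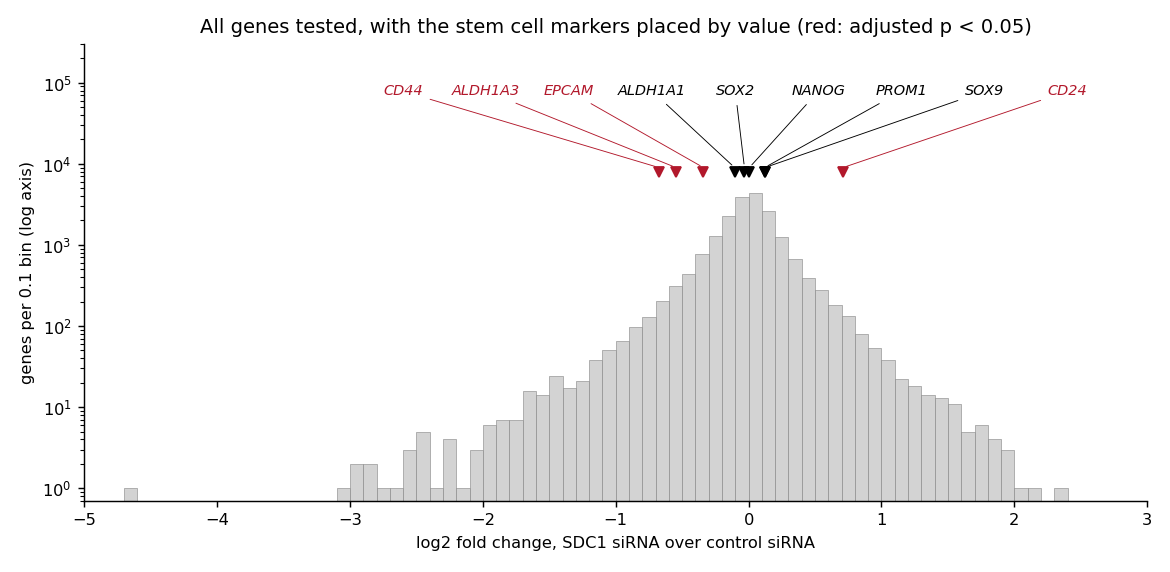
Histogram of the difference in log2 expression, SDC1 siRNA over control siRNA, for 19777 genes, with the number of genes on a log axis and the 9 markers placed above by value; red marks an adjusted p under 0.05. CD44, ALDH1A3, EPCAM and CD24 lie on the slopes of the distribution and the other 5 markers near its centre.

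Over the 6 arrays, 1096 genes had a Pearson correlation above 0.95 with CD44. The highest were those of TMEM87A (0.999), CCN2 (0.998), ENAH (0.998), CHEK1 (0.998) and DNAJB11 (0.997). For CD24 the number was 980, led by CDC7 (0.999), HSPE1 (0.999), UQCRB (0.999), PSMG1 (0.998) and USP6NL (0.998). These are descriptions over 6 arrays in 2 groups, so any gene that parts the groups scores high.

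Genes that work around the markers were read from lists. Among 25 measured genes of hyaluronan turnover and CD44 function, 5 rose and 7 fell, a share of 48.0% against 28.1% of all genes, with a median of 0.03. Of these, 17 were in the brightest class and 0 in the dimmest, against 9513 and 2465 of all 19777 genes. Brighter probe sets were called more often, and the part of brightness in the shares of this and the later lists was not tested. HAS2, which makes hyaluronan, rose by 0.74 (SE 0.070, limma adjusted p = 0.000121). CEMIP2, a cell surface hyaluronidase, fell by 1.03 (SE 0.073, limma adjusted p = 2.67e-05), as did TLR4, a pattern receptor reported to respond to hyaluronan fragments, by 1.48 (SE 0.072). Genes of hyaluronan breakdown did not move alike. HYAL2 rose by 0.42 (SE 0.057, limma adjusted p = 0.000745), HYAL3 fell by 0.82 (SE 0.087) and CEMIP was at 0.01 (adjusted p = 0.932). Among the linkers of CD44 to actin, RDX rose by 1.12 (SE 0.077) and MSN fell by 0.27, while EZR was at 0.09 (adjusted p = 0.434). ADAM10, a protease that sheds CD44, fell by 0.33 (SE 0.085, limma adjusted p = 0.0195). HYAL2, HYAL3, CEMIP, MSN, EZR and ADAM10 were named after their values were seen.

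Relatives and partners of EPCAM, CD24 and PROM1 had 2 of 14 higher and 3 lower, with a median of -0.06. That is 35.7%, against 28.1% of all genes. ADAM17, which cleaves EPCAM, fell by 0.69 (SE 0.061, limma adjusted p = 8.04e-05) on 2 probe sets at -0.71 and -0.67. CLDN7, a tight junction protein that binds EPCAM, fell by 0.44 (SE 0.086), and FHL2, a partner of EPCAM's cleaved tail, rose by 0.36 (SE 0.060). LYN, a kinase associated with CD24 in membranes, rose by 0.30 (SE 0.078). Of its probe sets, that at 0.33 passed, and those at 0.28 and 0.29 did not.

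The other aldehyde dehydrogenases had 5 of 17 higher and 2 lower (41.2%, against 28.1% of all genes), with a median of 0.11. ALDH9A1, of carnitine synthesis, rose by 0.82 (SE 0.077, limma adjusted p = 0.000106). ALDH6A1, of valine breakdown, rose by 0.65, and its dimmest probe set gave -0.20 (adjusted p = 0.374). ALDH7A1, of lysine breakdown, rose by 0.48 and the mitochondrial ALDH1B1 by 0.54. The third retinaldehyde dehydrogenase, ALDH1A2, was at 0.05 (adjusted p = 0.723) and was named after its value was seen.

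Genes of retinoic acid metabolism and its receptors had 1 of 17 higher and 5 lower, with a median of -0.14. That is 35.3%, against 28.1% of all genes. CRABP2, which carries retinoic acid to its nuclear receptors, rose by 1.42 (SE 0.092, limma adjusted p = 1.78e-05). PLAAT4, a retinoid- and interferon-inducible gene, fell by 1.43 (SE 0.11). DHRS3, which reduces retinaldehyde back to retinol, fell by 0.63 (SE 0.063), and the receptor RARB by 0.39 (SE 0.079), with other RARB probe sets from -0.45 to 0.02.

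**Figure D4:**
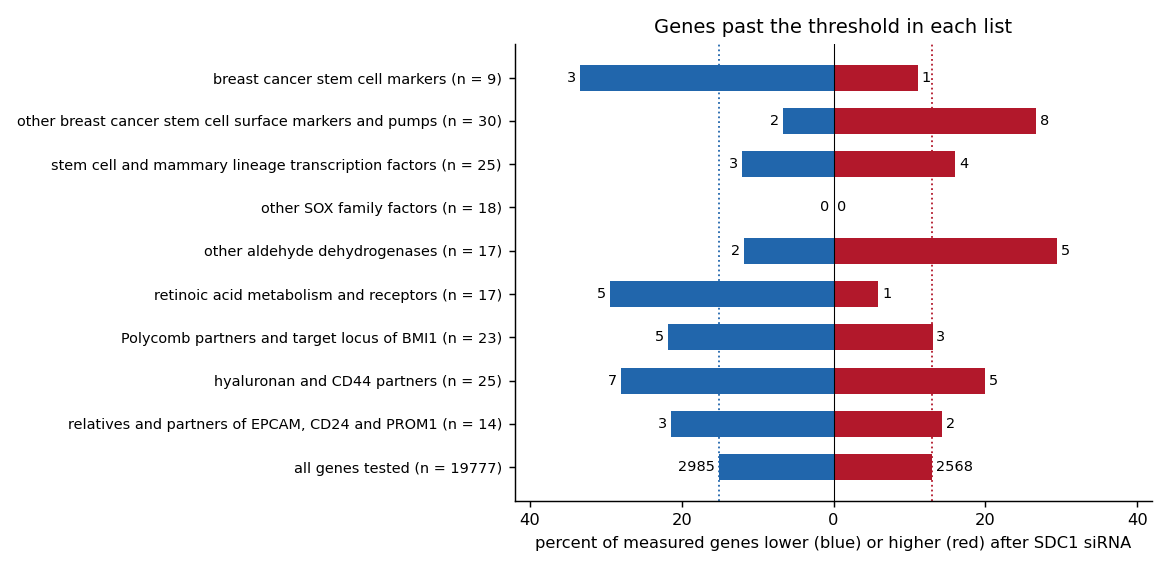
Percent of the measured genes of each list that were higher (red, right) or lower (blue, left) after SDC1 siRNA at an adjusted p under 0.05, with the number of genes beside each bar. Dotted lines mark the shares over all genes, 13.0% higher and 15.1% lower; the markers themselves had 1 higher and 3 lower of 9, and no other SOX factor passed.

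A wider list of surface markers and drug pumps used for breast cancer stem cells had 8 of 30 higher and 2 lower. That is 33.3%, against 28.1% of all genes, with a median of 0.03. DCLK1, a kinase that marks tuft cells, rose by 1.41 (SE 0.17, limma adjusted p = 0.000368) on 1 probe set, while its 3 dimmer ones ranged from -0.05 to 0.22 and did not pass. PROCR, the protein C receptor and a mammary stem cell marker in mouse, rose by 0.84 (SE 0.073, limma adjusted p = 7.82e-05). The RNA-binding protein MSI2 rose by 0.32, with probe sets from -0.21 to 0.46, and the efflux pump ABCG2 fell by 0.68. ITGA6, the integrin subunit used with EPCAM to sort mammary cells, was at -0.07 (adjusted p = 0.527) and was named after its value was seen.

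Stem cell and mammary lineage factors had 4 of 25 higher and 3 lower (28.0%, against 28.1% of all genes), with a median of 0.03. KLF5, a factor of basal progenitors, rose by 0.73 (SE 0.067, limma adjusted p = 9.84e-05), and GATA3, of the luminal lineage, by 0.44, on the brightest of its 3 probe sets alone. KLF4, a reprogramming factor, fell by 1.22 on 2 probe sets, and HMGA2, a chromatin protein of embryonic tissue, fell by 2.43 on its bright probe set. Of the dimmer HMGA2 probe sets, 2 went against it and rose, by 0.38 (limma adjusted p = 0.0418) and 0.59 (adjusted p = 0.0228), and the others ranged from -0.32 to 0.09 and did not pass.

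None of the 18 other SOX factors passed in limma, where 28.1% of all genes did. An unadjusted limma p under 0.05 was found for 1, and values ran from -0.20 to 0.21. Of the 18, 5 were in the brightest class and 6 in the dimmest, against 9513 and 2465 of all 19777 genes. A change of the dim ones may not be detectable here. Polycomb genes listed around BMI1, not all of them its partners, with the locus they silence, had 3 of 23 higher and 5 lower. That is 34.8%, against 28.1% of all genes, with a median of -0.001. PHC1, a subunit of the complex that holds BMI1, fell by 0.47 (SE 0.069, limma adjusted p = 0.00113). It is the mean of a probe set at -0.61 and of another at -0.33 that did not pass (limma adjusted p = 0.127). JARID2 fell by 0.38 (SE 0.055). PCGF1, a paralogue of BMI1, rose by 0.29 and SCMH1 by 0.30. The PCGF1 value is the mean of 0.37 and of 0.21, which did not pass (limma adjusted p = 0.108).

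The basal kind of the cell line could not be checked here, since both groups are the same line and levels are not in the values. The changes of basal and luminal markers are given as a description. Of 10 basal and mesenchymal markers 9 were in the brightest class, as were 8 of 10 luminal and epithelial markers, so the class did not separate them. Of all 19777 genes, 9513 were in that class, and the part of brightness in the shares of both lists was not tested. In the basal list 3 rose and 4 fell, a share of 70.0% against 28.1% of all genes, and those of lowest p were TGFBR2 at -1.58, VIM at -0.62, EGFR at -0.41 and FN1 at 0.41. The EGFR value is the mean of a probe set at -0.81 and of 2 at -0.22 and -0.20 that did not pass. In the luminal list 3 rose and 2 fell, a share of 50% against the same 28.1%, and those of lowest p were FOXA1 at 0.36, GATA3 at 0.44, CDH1 at -0.55 and XBP1 at -0.35. Probe sets disagreed here too: FOXA1 is the mean of 0.58 and of 0.13, which did not pass, XBP1 that of -0.79 and of 0.09, which did not pass, and a dim CDH1 probe set was at -0.17 (adjusted p = 0.36). Among the luminal keratins, named after their values were seen, KRT19 rose by 0.39 (limma adjusted p = 0.0448) with groups that overlapped, while KRT8 was at -0.07 and KRT18 at -0.21, and neither passed.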

How the data were processed

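The authors deposited log2 expression values from RMA (robust multi-array average), per the submitters' processing notes, which give no version; the sources used here do not name other steps. Each of the 54675 probe sets has a median within 1e-06 of 0 over the 6 arrays, as read from the values. A coarse brightness class was read from the numeric step that a single-precision log2 value between 2 and 4, 4 and 8, or 8 and 16 leaves (11177, 26177 and 17321 probe sets; some are placed too high, and no detection call was made). For a gene value, the single-gene probe sets of the gene's brightest class were averaged, with _x_at probe sets left out unless a gene has no other. Gene names come from GEO's platform annotation (41097 single-gene, 1801 several-gene, 11777 unnamed), with current symbols and overlapping genes from RefSeq; 62 control probe sets were left out.

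The test was limma's moderated one (version 3.58.1, R 4.3.3; eBayes after lmFit, 2-sided, no covariates, all 6 arrays) over 19777 genes and over 54613 probe sets. Within spike-in sets, a model with a mean for each group in each set was used; each set holds a lone array of one group. The median SE of a gene's difference was 0.075. The fit was also tested on simulated data. The number of arrays limits the precision. Named genes are the markers, SDC1, up to 4 genes past the threshold by lowest p in each list, and the 5 genes most correlated with CD44 and CD24. Members and lists were chosen with earlier results of these data known. The fit was repeated with other gene summaries, filters, priors, scalings and blocks, and without each array.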

Additional observations from a re-analysis of the deposited data

How the results depend on the processing

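With 3 arrays a group only differences well above the spread between arrays pass, and few probe sets of the dimmest class do (3.7%), which holds PROM1 and single probe sets of CD44, SOX2 and NANOG. Genes called numbered 5553, between 4473 and 5046 without single arrays, and 2982 and 2743 within the first and second spike-in sets, which hold 3 arrays each. Probe sets called numbered 10827, between 7808 and 9515 without single arrays, and 4326 and 4231 within the sets. The markers called higher were 1 or 2 without single arrays, and those called lower 2 or 3, against 1 (CD44) within the second set. Their probe sets called lower were 10, between 8 and 11 without single arrays and 2 within the second set. CD44 and CD24 kept their direction and call in all 16 alternatives, CD44 between -0.77 and -0.48 and CD24 between 0.61 and 0.87.

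Whether the replicate numbers pair the samples was not settled. The deviations of same-numbered arrays correlated weakly (0.015, 0.082 and 0.098), but 5 of 6 arrays correlated best with their own number. With the replicate block 5432 genes and 9918 probe sets were called, the gene calls of the markers were as before, and CD44 217523_at passed (adjusted p = 0.0173).

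Sign changes touched only genes and probe sets that had not passed. Within the first spike-in set SOX2 was at 0.033, SOX2 214178_s_at at 0.15, ALDH1A3 1558649_at at -0.20, CD44 234418_x_at at 0.02, CD44 216056_at at 0.030 and NANOG 220184_at at -0.24. Within the second, PROM1 (204304_s_at) was at -0.025, SOX9 at -0.23 (202935_s_at -0.36, 202936_s_at -0.11) and NANOG at -0.12. With the set as a block SOX2 214178_s_at was at 0.043 and SOX9 202935_s_at at -0.028. SOX2 was at 0.16 with all probe sets averaged, and NANOG at 0.00 with array medians subtracted and -0.0048 after quantile normalization. Without single arrays the ranges were -0.089 to 0.14 for NANOG and its 231079_at, -0.14 to 0.13 for 220184_at, -0.019 to 0.17 for ALDH1A3 1558649_at, -0.16 to 0.032 for SOX2 213721_at, -0.12 to 0.12 for 214178_s_at, -0.041 to 0.17 for 213722_at and -0.043 to 0.34 for SOX9 202935_s_at. Of 631 values of single genes and probe sets under alternatives, 562 kept direction and call, 28 lost the call, 5 gained it and 36 changed sign; the cause was not tested.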
